A study of Homo sapiens with 6 samples.

Results

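The 9 genes described here encode proteins of retinoid signalling: the retinoic acid receptors RARA and RARG, the retinoic acid carrier CRABP2, the retinol uptake receptor STRA6, the enzymes DHRS3, DHRS9, RDH10 and RDH11, which interconvert retinol and retinal, and ALDH1A3, which makes retinoic acid. They were followed in HaCaT cells, an immortalized line of human skin keratinocytes, on Illumina HT12 bead arrays. They were chosen by gene symbol, which gave 13 of the 47322 probes on the array and 9 of the 20046 genes that the probe annotation names. Of the 2 groups, the first held 3 arrays labelled as controls and the other 3 arrays of cells kept for 24 h in 1 µg/ml histamine, a mediator stored in mast cells. The treatment text in the labels is identical for all 6, so the groups rest on the sample titles. All cells grew in serum-containing medium with added calcium, and no retinoid was named as an addition in the labels. The comparison asked how histamine changes keratinocyte gene expression. The labels call the arrays triplicates and do not say whether they came from separate cultures, so the p-values measure the spread between these arrays, which may be technical in part.

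Retinol enters cells from its plasma carrier or from serum, is oxidized to retinal by retinol dehydrogenases, and is oxidized further to retinoic acid by retinal dehydrogenases. Retinal reductases run the first step backwards, and enzymes of the CYP26 family break retinoic acid down. Retinoic acid binds RAR proteins, which act as pairs with RXR proteins on DNA, and in skin it controls how keratinocytes grow and differentiate.

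Probe intensities were background corrected, quantile normalized and expressed as log2 values, where 1 unit is a 2-fold difference, so levels can be compared between arrays for a probe but not between probes. The median raw signal was 121 to 141 per array, and 36.7% to 40.9% of probes were detected, meaning that their signal stood above the negative control beads with a detection p-value under 0.05. A probe counted as measured when it was detected on at least 3 of the 6 arrays. The number of arrays limits the precision. All 8 keratinocyte markers with a probe were detected on every array, while 0 to 2 of 6 fibroblast, 0 to 3 of 5 melanocyte, 1 to 2 of 5 immune cell and 0 to 1 of 5 endothelial markers were. Of 11 skeletal muscle markers, 1 to 2 were detected on the control arrays, and 11, 6 and 6 on histamine replicates 1, 2 and 3. Their summed normalized intensity was 337 to 370 on the control arrays, 34686 on histamine replicate 1 and 1427 and 1362 on the others. The part of these muscle transcripts in the differences below was not tested. Values without histamine replicate 1 are given where leaving it out moved a value by over 1.5 times or ended a call. This covers the results followed with each array left out, not those of RXRB, KRT13, KRT19, FABP5 or the dimmer ALDH1A1 probe. In bulk RNA, fewer cells that express a gene and less of its RNA per cell cannot be told apart.

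No retinoid gene passed the test when each gene was represented by its brightest measured probe. Of the 9 genes, 7 were measured, and limma called 0 of them higher and 0 lower at an adjusted p-value under 0.05, with 0 also at an unadjusted p under 0.05. Over the 10406 genes tested, 21.3% changed, 9.29% higher and 12.0% lower. The differences of the 7 ran from -0.39 to 0.27 on the log2 scale, with a median of -0.0019, against a median of -0.08 over all genes tested. A second, dimmer probe of RDH11 and of ALDH1A3 did pass when probes were tested one by one, as described below. STRA6 and DHRS9 were not measured.

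**Figure D1:**
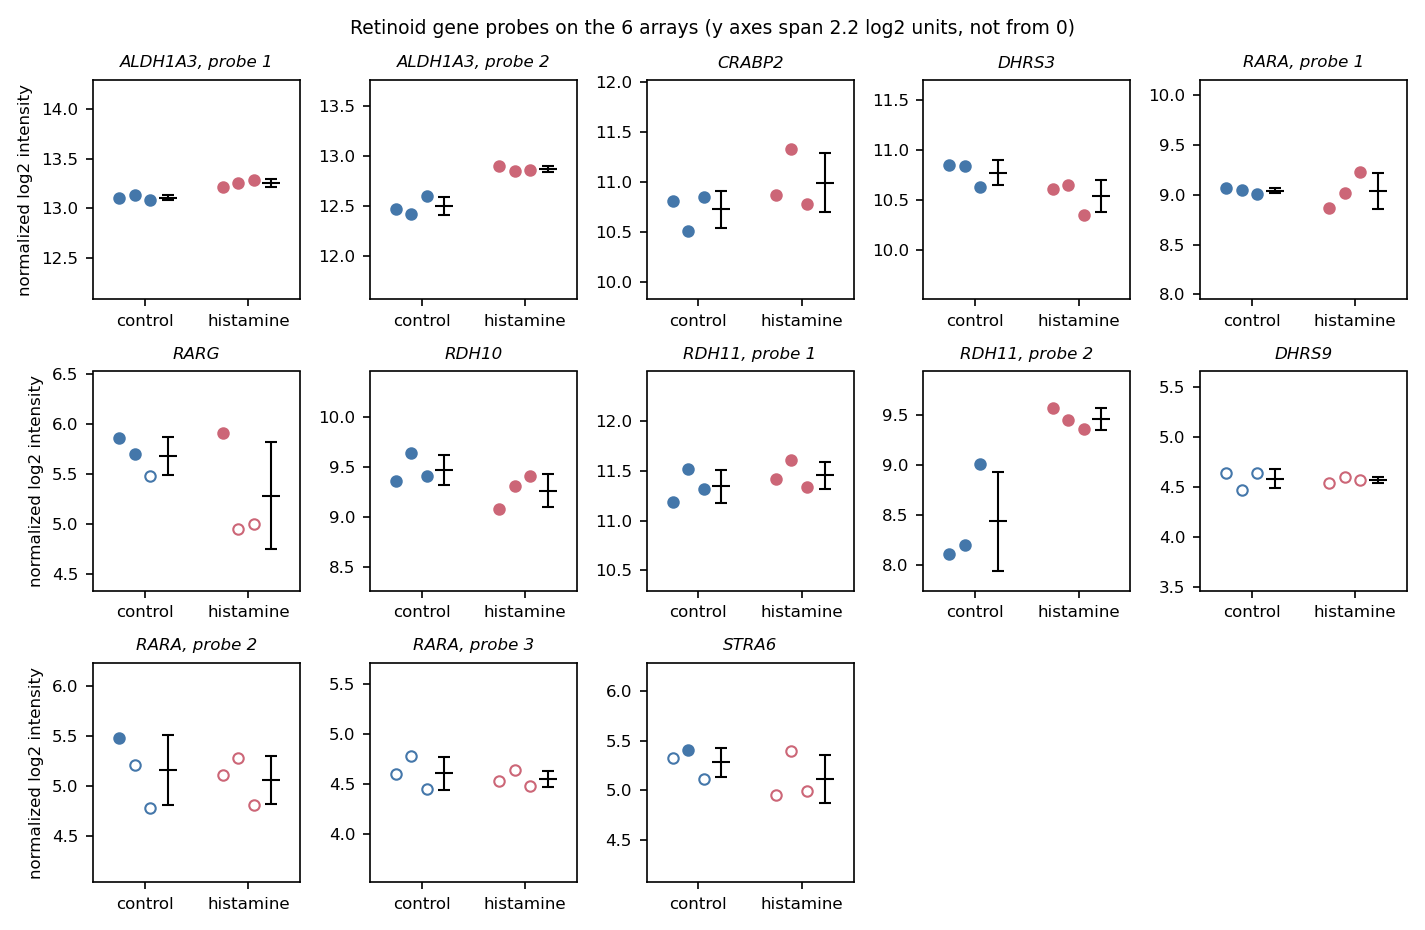
Normalized log2 intensity (y axis) of the 13 retinoid gene probes on the 3 control (blue) and 3 histamine (red) arrays, 1 panel per probe. Filled points were detected and open points were not, and the bar beside each group is its mean with the SD. RDH11 probe 2 is the panel with the largest gap between the groups, and DHRS9, STRA6 and RARA probes 2 and 3 were near background.

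Of the receptors, RARA differed between the groups by much less than the spread of its replicates. RARA, a ligand-activated transcription factor found in most tissues, lay at 9.06, 9.05 and 9.01 without histamine and at 8.87, 9.01 and 9.23 with it. The control values were close together, and the histamine values lay on both sides of them. The log2 difference was -0.0019 ± 0.14 (SE, n = 3 per group; adjusted p = 0.993), and its 95% confidence interval reached from a 1.22-fold decrease to a 1.22-fold increase. Over the alternatives the difference was between -0.20, with arrays scaled to their medians, and 0.08, without histamine replicate 1; its sign turned with array weights and with single arrays left out, and no setting gave a call. The other probes of RARA were not measured; one was detected on 1 control array and the other on none.

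RARG, the main retinoic acid receptor of the epidermis, was barely above background. Its probe was detected on 2 of 3 control arrays and 1 of 3 histamine arrays. Raw signals were 152, 171 and 146 in the controls and 150, 116 and 122 with histamine, against array medians that were themselves between 121 and 141. On the log2 scale the values were 5.86, 5.70 and 5.48 without histamine and 5.91, 4.95 and 5.00 with it. Histamine replicate 1 was as high as the controls, so the groups overlapped. The log2 difference of -0.39 ± 0.31 did not pass (adjusted p = 0.384), and without histamine replicate 1 it was -0.71 (adjusted p = 0.138), without replicate 2 of that group -0.22 and without replicate 3 -0.25. An interval from a 2.05-fold decrease to a 1.19-fold increase shows how little this probe can resolve.

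CRABP2, which carries retinoic acid to its nuclear receptors and is itself induced by retinoic acid in human skin, was expressed on every array. Its log2 intensity was 10.81, 10.51 and 10.85 without histamine and 10.87, 11.33 and 10.78 with it. Histamine replicate 2 stood above the other arrays, and the remaining histamine values were within or near the control range. The log2 difference was 0.27 ± 0.14 (adjusted p = 0.182), with an interval from a 1.02-fold decrease to a 1.47-fold increase. Without histamine replicate 2 it was 0.10, without control replicate 2 it was 0.16, and with median scaling 0.07.

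STRA6, the membrane receptor that takes up retinol from its plasma carrier RBP4, was above background on 1 of 3 controls and with histamine on 0 of 3. Raw signals of its probe were 131, 157 and 134 in the controls and 117, 132 and 122 with histamine, near the array medians. It was not tested. At this signal over background STRA6 could not be followed. RNA of RBP4 was likewise detected on a single array, histamine replicate 2.

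Of the enzymes that interconvert retinol and retinal, DHRS3, RDH10 and RDH11 were detected on all 6 arrays and DHRS9 on none. DHRS3, a retinal reductase that retinoic acid induces in many cell types, lay at 10.85, 10.84 and 10.63 without histamine and at 10.61, 10.65 and 10.35 with it. The groups overlapped only by control replicate 3, which was below histamine replicate 2. The log2 difference was -0.24 ± 0.12 (adjusted p = 0.162), and the interval ran from a 1.40-fold decrease to a 1.01-fold increase. Leaving out histamine replicate 3 brought the difference to -0.14, and median scaling took it to -0.43 (adjusted p = 0.0696).

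RDH10, a retinol dehydrogenase of the first oxidation step, gave 9.36, 9.64 and 9.40 without histamine and 9.08, 9.31 and 9.40 with it. Histamine replicate 3 equalled control replicate 3, so the groups overlapped. Its log2 difference of -0.20 ± 0.14 did not pass (adjusted p = 0.303). Without histamine replicate 1 it was -0.11, without control replicate 2 it was -0.12, and median scaling took it to -0.41. Neither DHRS3, which works towards retinol, nor RDH10, which works towards retinal, gave a call. DHRS9, a retinol dehydrogenase of differentiating epidermis, was detected on 0 of 6 arrays, with raw signals of 92.7 to 112.0, and was not tested.

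RDH11, a retinal reductase of the endoplasmic reticulum, had 2 measured probes, both annotated to the same transcript accession, and they gave different results. On the brighter probe the log2 intensity was 11.19, 11.52 and 11.32 without histamine and 11.42, 11.60 and 11.34 with it. The groups overlapped and the log2 difference was 0.11 ± 0.11 (adjusted p = 0.519), turning to -0.09 with median scaling. It was 0.03 without control replicate 1, 0.04 without histamine replicate 2, 0.17 without histamine replicate 3 and 0.20 without control replicate 2. On the dimmer probe, ILMN_2128741, the values were 8.10, 8.20 and 9.01 without histamine and 9.57, 9.45 and 9.36 with it. All 3 histamine arrays were above all 3 control arrays, although control replicate 3 lay nearer to the histamine arrays than to the other controls. In the fit of all 17871 measured probes this probe rose 2.03-fold, a log2 difference of 1.02 ± 0.19 (adjusted p = 0.000911; interval 1.54-fold to 2.69-fold). Without any 1 array the difference was 0.86 to 1.31, and with median scaling 0.83, and the call held in each case. It was 0.97 without histamine replicate 1, the array with the most muscle transcript.

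ALDH1A3, a retinal dehydrogenase that makes retinoic acid in keratinocytes, was bright on both of its probes. The brighter probe lay at 13.11, 13.13 and 13.09 without histamine and at 13.22, 13.26 and 13.29 with it. These groups did not overlap, as was so for 37.4% of all genes tested, but the log2 difference of 0.15 ± 0.09 did not pass (adjusted p = 0.245) and was 0.04 with median scaling. The dimmer probe, ILMN_1807439, gave 12.47, 12.43 and 12.60 without histamine and 12.90, 12.85 and 12.86 with it. Again every histamine array was above every control array. This probe rose 1.30-fold in the probe fit (log2 difference 0.37 ± 0.10; adjusted p = 0.00963; interval 1.13-fold to 1.49-fold). Median scaling took the difference to 0.19 and ended the call (adjusted p = 0.362), as did leaving the intensity trend out of the model (adjusted p = 0.084).

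Probe by probe, 2 of the 9 measured retinoid gene probes were called higher and 0 lower, while over all measured probes 21.9% were called, 11.0% higher and 10.9% lower. Groups did not overlap for 3 of the 9, against 37.3% of all measured probes, so neither count stood far from the background. Whether the probes of a gene moved unequally was tested after their values had been seen, in a limma fit of the difference between the 2 brightest measured probes of 2702 genes. For RDH11 the dimmer probe shifted by 0.91 ± 0.27 more than the brighter (adjusted p = 0.0474). This call was close to the threshold: it did not hold when dim probes were left in, with robust variances, and without any 1 array except control replicate 3, with adjusted p-values from 0.0503 to 0.151. Without histamine replicate 1 the RDH11 shifts differed by 0.84 (adjusted p = 0.13). For ALDH1A3 the shifts differed by 0.23 ± 0.17, which did not pass (adjusted p = 0.425; interval -0.16 to 0.61). Unequal shifts were called for 15.6% of the 2702 genes. With the mean of the probes in place of the brightest, RDH11 rose by 0.57 (adjusted p = 0.00756) and ALDH1A3 rose by 0.26 (adjusted p = 0.0328), so whether these genes are called depends on the probe rule.

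**Figure D2:**
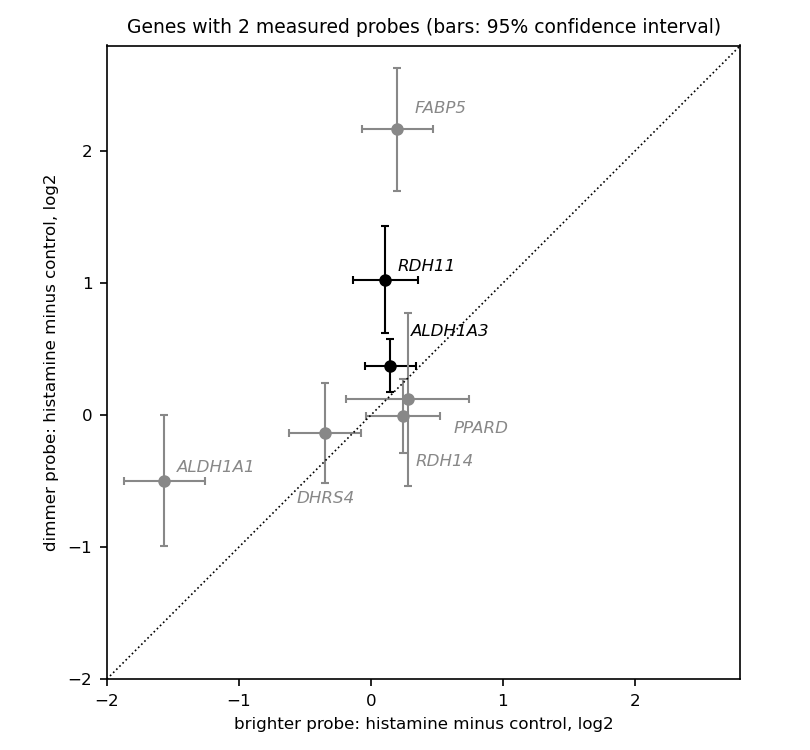
Log2 difference between histamine and control on the brighter probe (x axis) and on the dimmer probe (y axis) for the retinoid genes (black) and other retinoid pathway genes (grey) with 2 measured probes, with 95% confidence intervals from the probe fit. Points on the dotted line have equal shifts. RDH11 at 0.11 and 1.02, FABP5 at 0.20 and 2.16, and ALDH1A1 at -1.57 and -0.50 lie farthest from it.

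Other genes of the retinoid pathway were taken from a list of 56, of which 47 had a probe with that symbol and 23 were measured. Of these 23, 3 rose and 4 fell, while 16 gave no call, with a median log2 difference of -0.05. In all genes 9.29% rose and 12.0% fell. The rises were lost with median scaling, under which 0 rose. By role, 1 of 6 measured retinol dehydrogenases and retinal reductases rose and 0 fell, 0 rose and 1 of 3 nuclear receptors fell, and none of the 2 coregulators, the 2 retinyl ester enzymes or the 1 binding protein measured passed. Of 5 measured retinoid-responsive genes 2 rose and 1 fell. The fallen genes belong to different steps: a retinal dehydrogenase (ALDH1A1), a retinoic acid hydroxylase (CYP26A1), a receptor partner (RXRA) and a mucosal keratin (KRT4).

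ALDH1A1, which like ALDH1A3 oxidizes retinal to retinoic acid, had the largest difference of the pathway genes measured. Its brighter probe lay at 9.81, 9.80 and 9.76 without histamine and at 8.02, 8.48 and 8.18 with it. The gap between the groups was wider than the spread within either. ALDH1A1 fell 2.96-fold (log2 difference -1.57 ± 0.14; adjusted p = 1.21e-06) and kept its call in every alternative run, with differences between -1.77 and -1.03. Its dimmer probe gave 7.41, 8.10 and 8.18 without histamine and 6.94, 7.77 and 7.49 with it, a difference of -0.50 ± 0.24 that did not pass (adjusted p = 0.147). The lowest value of the dimmer probe, 6.94, was on histamine replicate 1, the array with the most muscle transcript. Its difference without that array is not given. The shifts of the probes differed by 1.07 ± 0.25 (adjusted p = 0.0208). The brighter probes of both retinal dehydrogenases thus had differences of opposite sign, -1.57 for ALDH1A1 and 0.15 for ALDH1A3, of which that of ALDH1A1 passed. The difference between them was not tested. ALDH1A2, the retinal dehydrogenase of the embryo, was seen on 1 control array and on 0 of the histamine arrays.

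CYP26A1, which breaks down retinoic acid and is a classic target of its receptors, lay at 8.22, 7.97 and 8.06 without histamine and at 7.63, 7.24 and 7.56 with it. All histamine values were below all control values. CYP26A1 fell 1.53-fold (log2 difference -0.61 ± 0.17; adjusted p = 0.0193), a call lost without control replicate 1, without histamine replicate 2 (adjusted p = 0.0816 and 0.0817) and when dim probes were left in. Of its other 3 probes, which were not measured, one was above background on 2 of 3 controls and with histamine on 0 of 3. CYP26B1, the other retinoic acid hydroxylase of skin, gave 8.97, 9.11 and 8.85 without histamine and 9.26, 8.96 and 9.36 with it. Its groups overlapped, and the difference of 0.22 ± 0.14 did not pass (adjusted p = 0.297). It was 0.34 without histamine replicate 2, 0.13 without histamine replicate 3 and 0.016 with median scaling. CYP26C1 was detected on no array.

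RXRA, the main RXR of epidermis and the DNA-binding partner of RAR proteins, lay at 11.47, 11.37 and 10.95 without histamine and at 10.67, 10.91 and 10.94 with it. The groups did not overlap, but control replicate 3 was barely above the highest histamine array. RXRA fell by 0.42 ± 0.13 on the log2 scale (adjusted p = 0.0281). This call did not hold when dim probes were left in or when the intensity trend was left out. It was also lost when control replicate 1 or 2 or histamine replicate 1 or 2 was left out. Without histamine replicate 1 the RXRA difference was -0.34 (adjusted p = 0.11). RXRB differed by -0.05 ± 0.13 and did not pass. RARB, a receptor gene that retinoic acid induces, had 3 probes, of which 1 was detected, on 1 control array. The corepressor NRIP1, a retinoic acid target in several cell types, gave -0.06 ± 0.17 (adjusted p = 0.835) and had the opposite sign without control replicate 3 (0.06) or histamine replicate 1 (0.09).

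The 3 pathway genes that rose did so by less than 2-fold. HBEGF, an EGFR ligand that retinoids induce in epidermis, lay at 8.42, 8.67 and 8.32 without histamine and at 8.94, 9.23 and 9.03 with it. With its groups apart, HBEGF rose 1.51-fold (log2 difference 0.60 ± 0.15; adjusted p = 0.00833). PLAAT4, a growth-restraining phospholipase first found as a retinoid-induced skin gene, gave 8.12, 8.43 and 7.97 without histamine and 8.68, 8.85 and 8.69 with it. Every histamine array was higher, and PLAAT4 rose 1.48-fold (0.57 ± 0.16; adjusted p = 0.0163). Without control replicate 1 or histamine replicate 2 its call was lost (adjusted p = 0.0514 and 0.0641). AKR1C3, an aldo-keto reductase that can reduce retinal and has near-identical paralogs that its probe may read, rose by 0.39 ± 0.12 (adjusted p = 0.0235), and its call was lost without control replicate 1 or 2 and without histamine replicate 2 or 3, and when the intensity trend was left out (adjusted p = 0.0912). KRT4 fell by 0.46 ± 0.15 (adjusted p = 0.043). The KRT4 values were 9.78, 9.92 and 9.69 without histamine and 8.98, 9.68 and 9.36 with it, and without histamine replicate 1, the lowest, the difference was -0.28 (adjusted p = 0.228). Leaving out either of the first 2 control replicates, or the third histamine replicate, also ended the KRT4 call, as did leaving dim probes in (adjusted p = 0.0888) and leaving the intensity trend out (adjusted p = 0.137).

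Of the other retinoid-responsive genes, KRT13 (-0.30 ± 0.13; adjusted p = 0.0956) and KRT19 (-0.06 ± 0.09; adjusted p = 0.647) did not pass. The KRT13 values were 13.81, 13.58 and 13.51 without histamine and 13.02, 13.62 and 13.36 with it. Histamine replicate 1, the array with the most muscle transcript, was the lowest, and the KRT13 difference without it is not given. RARRES1, RARRES2 and TGM2 were detected on no array. FABP5, a lipid carrier that can also bind retinoic acid, did not pass on its brightest probe (0.20 ± 0.12; adjusted p = 0.265). Its dimmer measured probe, singled out after its values were seen, lay at 5.54, 5.39 and 5.53 without histamine and at 7.74, 7.41 and 7.81 with it. In the controls this probe was barely above background, with raw signals of 139, 156 and 148 and detection p-values of 0.026, 0.030 and 0.045. The size of its shift thus rests on control values near the detection limit. The shifts of these FABP5 probes differed by 1.96 ± 0.23 (adjusted p = 0.00203), and FABP5 has near-identical pseudogene copies that a probe may read.

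**Figure D3:**
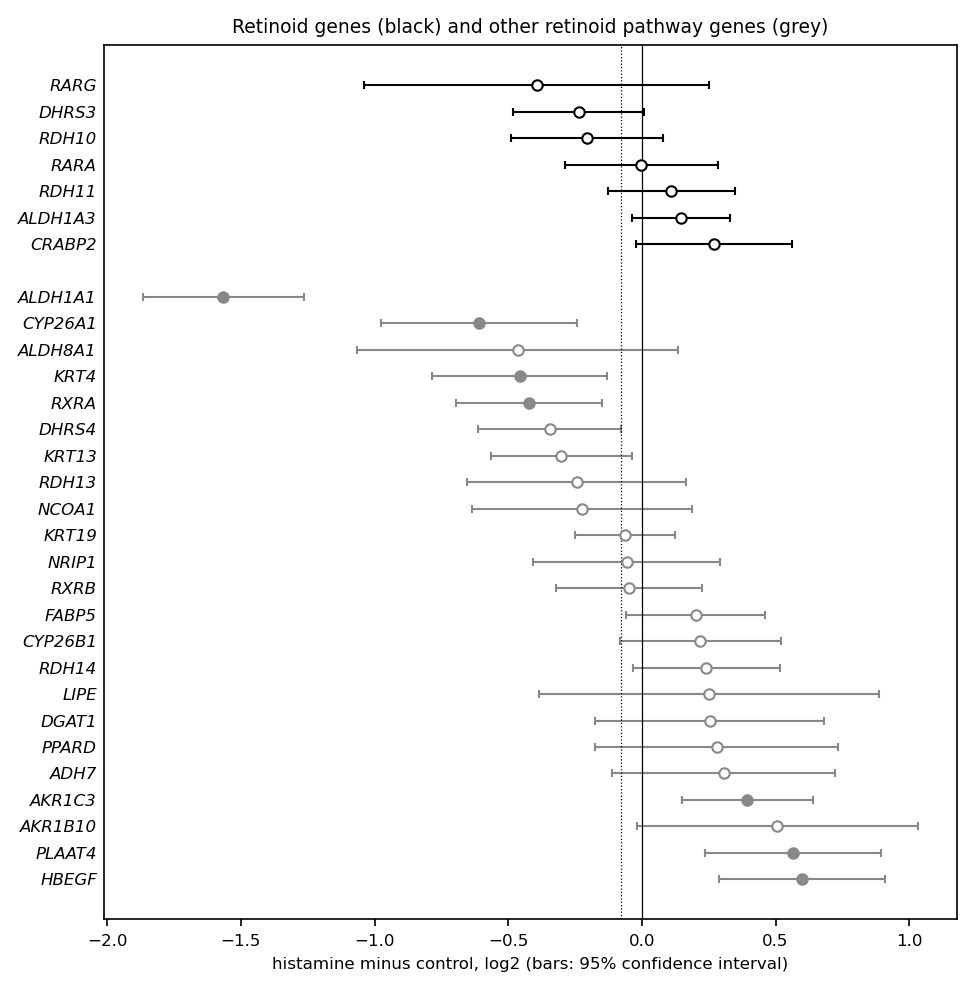
Log2 difference between histamine and control (x axis, with 95% confidence interval) for the 7 measured retinoid genes (black) and 23 other measured retinoid pathway genes (grey), each on its brightest probe. Filled points passed the test, and the dotted line is the median of all genes tested, -0.08. All 7 retinoid genes are open, and ALDH1A1 lies farthest from 0.

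Promoter sequences were examined for the 9 retinoid genes and for RXRA, RARB, CYP26A1, CYP26B1 and ALDH1A1, called or not. HBEGF, PLAAT4, AKR1C3 and KRT4, which passed the test, were not searched. RAR and RXR pairs bind direct repeats of a half-site, most often spaced by 5 bases, so 300-base windows from 250 bases before to 50 after annotated starts were searched on both strands for the half-site AGGTCA, for its common variant GGGTCA, for the form AGTTCA known from retinoic acid response elements, and for GGTTCA, which is also known from them, as well as for direct repeats of any of them spaced by 1, 2 or 5 bases. Sequences were RefSeq's for build GRCh38.p14 and matched 8 of the 9 retinoid genes, all but RDH10, with 19 windows. The printed windows are those of RDH11 and ALDH1A3, the retinoid genes with a called probe, and of CYP26A1, a fallen gene with a direct repeat. They run 5′ to 3′ on the gene's strand, with half-sites in capitals. RDH11 is at chr14:67695715-67696014 (minus strand), ALDH1A3 at chr15:100879581-100879880 (plus strand) and CYP26A1 at chr10:93073643-93073942 (plus strand).
RDH11: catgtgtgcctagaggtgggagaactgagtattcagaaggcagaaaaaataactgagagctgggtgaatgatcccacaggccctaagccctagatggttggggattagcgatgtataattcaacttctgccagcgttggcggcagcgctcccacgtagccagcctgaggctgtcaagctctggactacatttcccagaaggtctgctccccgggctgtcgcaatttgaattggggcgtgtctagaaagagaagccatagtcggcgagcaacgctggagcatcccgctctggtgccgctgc
ALDH1A3: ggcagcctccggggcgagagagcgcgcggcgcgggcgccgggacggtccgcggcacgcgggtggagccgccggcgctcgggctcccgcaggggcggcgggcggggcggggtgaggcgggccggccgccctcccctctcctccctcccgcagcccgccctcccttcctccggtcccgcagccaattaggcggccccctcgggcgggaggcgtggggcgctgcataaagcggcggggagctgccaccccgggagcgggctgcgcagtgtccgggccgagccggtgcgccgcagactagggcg
CYP26A1: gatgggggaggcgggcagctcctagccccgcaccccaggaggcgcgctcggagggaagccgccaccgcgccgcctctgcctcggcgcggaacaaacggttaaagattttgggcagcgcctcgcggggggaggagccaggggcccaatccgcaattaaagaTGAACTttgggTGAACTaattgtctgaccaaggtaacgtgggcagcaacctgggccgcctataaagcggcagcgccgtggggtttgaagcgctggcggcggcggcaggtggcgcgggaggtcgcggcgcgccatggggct

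The windows of RDH11 and ALDH1A3 held no half-site. That of CYP26A1 held the half-site AGTTCA on the opposite strand from the gene, 90 and 79 bases before the start, spaced by 5 bases. This window was picked because it held a repeat, and the other CYP26A1 window searched held no half-site. Of the other pathway genes searched, the single window of ALDH1A1, the gene with the largest fall, and that of CYP26B1 held none, and the 2 windows of RXRA held 1 half-site and no repeat. RARB, which did not pass the detection filter, had a repeat spaced by 5 bases in 1 of 4 windows. A direct repeat with this spacing was present in 0.0883% of 35116 windows of the same length, and one with any of the 3 spacings in 0.259%. None of the 19 windows of the retinoid genes held such a repeat, and 7 held a half-site, against 38.6% of all windows; these lay at CRABP2, DHRS3, DHRS9, RARA and STRA6. A match describes the letters in the window, and its absence says nothing of binding elsewhere.

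The genes whose pattern across the 6 arrays was most like that of CRABP2, the measured retinoid gene with the largest positive difference, were PDIK1L (Pearson r = 0.98), MFGE8 (0.98) and PRKCD (0.97). For RARG, with the largest negative difference, they were TRIML1 (0.99), ABCG1 (0.98) and B9D1 (0.98). With 6 points and 10406 genes such values are a description of these arrays, which share their group difference, and RARG was near background.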

How the data were processed

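Total RNA of 6 HaCaT samples was measured, 1 array each. The deposited intensity of a probe is the mean of its beads, not normalized, per the file headers, and the detection p-values beside them rank each probe among the negative control beads, per the file headers. The authors' deposited table of processed values is log2-like and has the same distribution on each array (median 7.46); how it was transformed is unknown here. Tools named were GenomeStudio 2010.1 and lumi, per the submitters' processing notes.

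In limma 3.58.1 under R 4.3.3, signals were normexp corrected, with background inferred from detection p-values and an offset of 16, which compresses differences of dim probes, then quantile normalized. Probes detected at p under 0.05 on at least 3 of 6 arrays were kept (17871 of 47322). Symbols came from the platform annotation: 30112 probes had 1, 8 several and 17202 none; 30073 matched the GRCh38.p14 gene table by Entrez identifier and 0 changed. The brightest kept probe stood for its gene (10406 genes). A 2-group model with moderated variances and an intensity trend was fitted over all genes, and again over all kept probes; the fit of probe pairs had no trend. P-values were 2-sided and adjusted by Benjamini and Hochberg over each fit. The test was tried on simulated data, whose outcome is not given here, so its error rate on these arrays is not stated. Errors are SE unless stated. Arrays of a group correlated at 0.98 to 0.99 across genes. Control samples are numbered in 1 series of sample names and histamine samples in another, so anything that differed between those series and histamine cannot be told apart.

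The retinoid genes, the pathway list and the marker lists were chosen with earlier results of these data known. Named pathway genes are all that passed, and RXRA, RARB, NRIP1, CYP26A1 and CYP26B1; list genes named beyond these (detected on no or few arrays, the remaining receptors, hydroxylases, dehydrogenases and responsive genes, and FABP5) were chosen after their values were seen. Likeness was ranked for the measured retinoid genes with the largest positive and negative difference. Alternatives were other background, offset, scaling and filter settings, the processed table, the mean of probes, other variance models, array weights, a replicate block and each array left out in turn. Same-numbered control and histamine arrays did not deviate together (r = -0.03, -0.03 and -0.05). Probe sequences and positions were not used here.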

Additional observations from a re-analysis of the deposited data

How the results depend on the processing

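No alternative called a measured retinoid gene lower, and the mean of probes was the only one that called any higher (2, RDH11 and ALDH1A3). Retinoid gene probes called higher numbered 1 with median scaling and 1 without the intensity trend, against 2. Pathway genes called higher numbered 0 with median scaling and 1 to 4 with 1 array left out, against 3; those called lower numbered 1 with no filter on dim probes, 2 without the intensity trend, 1 to 4 with 1 array left out, 6 with median scaling and 5 with array weights, against 4. All genes changed numbered 1476 with no filter on dim probes, 1372 without the intensity trend and 1220 to 2547 with 1 array left out, against 2220; single probes numbered 2490 to 4514 with 1 array left out, against 3915. With median scaling the median difference of all genes was -0.26, and 20.1% of changed genes were higher, against 43.6%. The sign of RARA turned with array weights (0.0065) and without control replicate 1 (0.0095), control replicate 2 (0.0013), histamine replicate 1 (0.081) or histamine replicate 2 (0.01), with a range of -0.097 to 0.081 over arrays left out, that of RDH11 on its brighter probe with median scaling (-0.089), and that of NRIP1 without control replicate 3 (0.057) or histamine replicate 1 (0.086), with a range of -0.18 to 0.086. The causes were not tested. As a replicate block, replicate numbers, which did not pair the arrays, gave 1905 changed genes, 2 retinoid gene probes higher and 0 lower, and changed no call of a retinoid gene. The stricter filter left out RARG. What limits the dim members is signal over background: STRA6, DHRS9 and RARG were at or near it.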
